A study of Mus musculus with 8 samples.

Results

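Cluster 9 was a group of 72 thymocytes among 10237 single cells, the cells that carry cluster number 9 in the authors' table of cells, taken from all libraries. Of the 72 cells, 31 lay in the KI DN3 library, 38 in the WT DN3 library, 1 in the KI DN4 library and 2 in the WT DN4 library. The working name of the group rests on Rag2, Rag1 and Il2ra, so these 3 genes are given first. The method that made the clusters is not given in the sources used here, and it worked on the expression of these same cells, so every level set between clusters is a description with no test. The receptor contigs of each cell were read in separate libraries, although receptor gene transcripts are also counted in the expression matrix. Genotype did not lie outside the clustering, since clusters 0 and 1, used below for comparison, divided largely by genotype.

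The cells came from mice labelled GSK3B Ser389Ala KI (knock-in, KI) and from C57BL/6J mice (wild type, WT). GSK3B is a serine/threonine kinase, and in the KI mice the labels give an alanine in place of the serine at that position. Thymocytes without CD4 or CD8 were enriched with magnetic beads and then sorted as DN3 (CD44-CD25+) or DN4 (CD44-CD25-), and their RNA was read by 10x single-cell libraries of the 5′ ends of transcripts with matched T cell receptor libraries. Each of KI DN3, WT DN3, KI DN4 and WT DN4 had 1 expression library and 1 receptor library. The number, age and sex of the mice behind each library are not given in the sources used here, and with 1 library a group nothing separates genotype from library. Intervals in brackets are 95% intervals of counting error alone, from exact Poisson or binomial limits, and say nothing of the spread between mice.

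DN3 is the stage at which a thymocyte cuts and joins the gene segments of the T cell receptor β chain with the recombinase made of RAG1 and RAG2. A cell with a working β chain pairs it with the pre-T cell receptor α chain, signals, divides several times and loses CD25, the product of Il2ra, while RAG is switched off. RAG2 protein is broken down as cells leave G1, so that cutting of receptor genes and DNA replication are kept apart in the cell cycle. Genes of G2 and mitosis, such as those of cyclin B, the chromosomal passenger complex and the kinetochore, are transcribed late in the cycle and fall again once a cell has divided.

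Cluster 9 made up 0.940% of KI DN3 cells (0.640 to 1.33%) and 1.32% of WT DN3 cells (0.934 to 1.80%), so the intervals of the libraries overlapped. It made up 0.0388% of KI DN4 cells and 0.135% of WT DN4 cells. The 4 libraries held 30402236 (KI DN4), 25525613 (KI DN3), 22652454 (WT DN3) and 16411164 (WT DN4) unique molecular identifiers (UMIs, 1 per captured transcript). Cluster 9 cells held a median of 8780.5 UMIs, ranging from 2784 to 16157, against 5143 in clusters 0 and 1, 9944.5 in cluster 6 and 22619.5 in cluster 4. Their median mitochondrial share was 1.86%, against 2.92%, 2.25% and 1.79% in the same order. The cell caller for doublets, Scrublet, marked none of the 72 cells, but it marked only 0.0910% of KI DN3 and 0.139% of WT DN3 cells and is therefore no evidence on doublets. Of 10182 distinct barcodes 54 occurred in more than 1 library, and none of them belonged to a cluster 9 cell.

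Levels are given as CPM, the UMIs of a gene summed over a group of cells per 1000000 UMIs of those cells. Clusters 0 and 1 (4744 cells), the bulk of the DN3 sort, and cluster 6 (550 cells) serve as comparison. Among DN3 cells, cluster 0 held 2415 KI and 109 WT cells, and cluster 1 held 54 KI and 2146 WT cells. The pool of clusters 0 and 1 therefore joins a mostly KI and a mostly WT cluster. A gene counts as higher or lower when it was at 50 CPM or more in either group and differed at least 2-fold.

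The markers behind the name did not move together. Rag2, the smaller recombinase subunit (chromosome 2, 101624718 to 101632529 on GRCm38), stood at 30.6 CPM in KI DN3 cells of cluster 9 (8 UMIs) and 64.3 CPM in WT DN3 cells of cluster 9 (21 UMIs), against 30.8 and 33.0 CPM in KI and WT DN3 cells of clusters 0 and 1 and 5.76 and 5.81 CPM in those of cluster 6. Rag2 in cluster 9 over clusters 0 and 1 thus had a log2 ratio of -0.01 (-1.23 to 0.98) in KI cells. In WT cells the ratio was 0.96 (0.255 to 1.59), which lies inside the KI interval. Set directly against WT within cluster 9, KI cells gave -1.07 (-2.46 to 0.16), an interval that included no difference. These few UMIs therefore do not show that the genotypes differ in Rag2, and the difference was not tested. Over all libraries Rag2 was at 49.6 CPM in cluster 9 and 32.1 CPM in clusters 0 and 1, a log2 ratio of 0.63 (0.06 to 1.14), and the log2 ratio over cluster 6 was 3.11 (2.35 to 3.86).

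Rag1, the subunit that cuts DNA (chromosome 2, 101638282 to 101649501), was at 115 CPM in KI and 101 CPM in WT cells of cluster 9, against 178 and 156 CPM in clusters 0 and 1 and 24.1 and 22.5 CPM in cluster 6. It lay below clusters 0 and 1 in both libraries, with a log2 ratio of -0.64 (-1.01 to -0.29), and above cluster 6 with a log2 ratio of 2.14 (1.69 to 2.57). Il2ra, which encodes the CD25 used in the sort (chromosome 2, 11642807 to 11693193), was at 134 CPM in KI and 165 CPM in WT cells of cluster 9, against 646 and 657 CPM in clusters 0 and 1 and 385 and 382 CPM in cluster 6. Its log2 ratio was -2.19 (-2.51 to -1.89) over clusters 0 and 1 and -1.37 (-1.70 to -1.07) over cluster 6. In cluster 9 both recombinase transcripts therefore stood above cluster 6, while the CD25 transcript stood below both comparison groups.

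**Figure D1:**
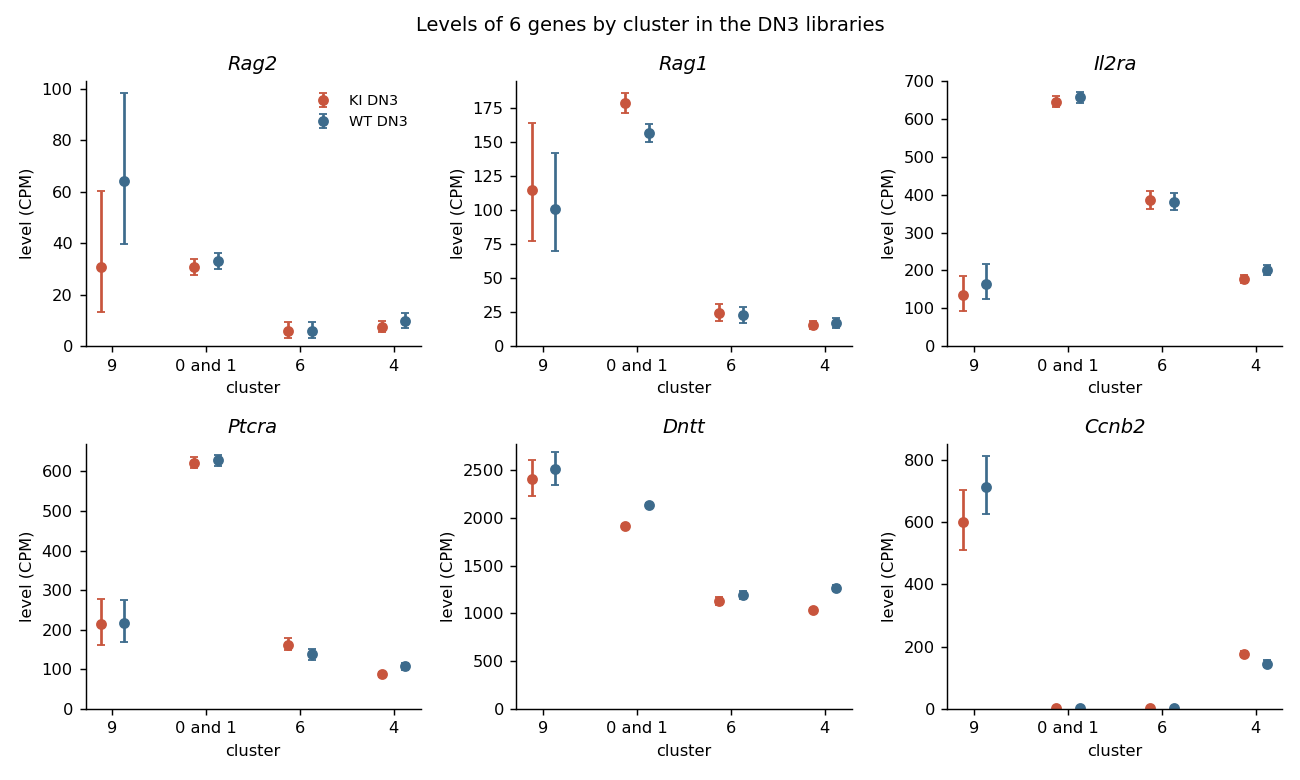
Levels of Rag2, Rag1, Il2ra, Ptcra, Dntt and Ccnb2 in CPM (y axis, from 0, scaled per gene) by cluster (x axis), with KI DN3 left of WT DN3 in each cluster; points are sums over cells and bars are 95% Poisson intervals of counting error. In cluster 9 Rag1 lay between clusters 0 and 1 and cluster 6, Il2ra was at 134 and 165 CPM, and Ccnb2 at 601 and 713 CPM.

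At least 1 UMI of Rag2 was seen in 23 of 72 cluster 9 cells (31.9%, 21.4 to 44.0%), against 14.4% of cells in clusters 0 and 1 and 5.09% in cluster 6. Since the cells differ in depth, each was thinned to 3000 UMIs, which left out 1 cell of cluster 9, 293 of clusters 0 and 1 and 4 of cluster 6. The mean share over such draws was 13% for Rag2 in cluster 9, 8.61% in clusters 0 and 1 and 1.48% in cluster 6. For Rag1 the share of cells was 50% in cluster 9, 48.5% in clusters 0 and 1 and 12.5% in cluster 6, and after thinning 24.9%, 35.2% and 5.39%. Free RNA in the droplets of the DN3 libraries was not measured, since clusters 2 and 5, whose cells had nearly no recombinase UMI, had only 2 cells there. The DN3 cells of cluster 6 had a Rag2 UMI in 5.07% and a Rag1 UMI in 12% of 533 cells, at a median of 9874 UMIs, against 31.9% and 49.3% of the 69 DN3 cells of cluster 9 at a median of 8716. The recombinase UMIs of cluster 9 were spread over many cells, with at most 6 Rag2 UMIs and 5 Rag1 UMIs in any of them.

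The highest ratios of cluster 9 over clusters 0 and 1 were those of genes of G2 and mitosis. Against clusters 0 and 1, 132 of 3458 genes were higher in cluster 9 (3.82%) and 173 were lower (5%), with a median log2 ratio of 0.06 over all genes tested. Taken alone, the KI DN3 library had 4.96% of genes higher and 7.56% lower and the WT DN3 library 4.57% higher and 5.72% lower, and 79 of the 132 and 96 of the 173 genes were called again in both. Of 46 G2/M genes in the list, 23 reached 50 CPM, and 19 of these were higher and none lower, with a median log2 ratio of 4.28. The other higher genes of the 132 are outside that list. In the deposited phase calls 25 of 31 KI DN3 cells and 30 of 38 WT DN3 cells of cluster 9 were G2M, and 58 of all 72 cells (80.6%, 69.5 to 88.9%), against 23 of 4744 cells (0.485%) in clusters 0 and 1 and 2 of 550 in cluster 6. Of the other cells of cluster 9, 11 were called G1 and 3, all of them KI DN3, were called S. The phase calls are read from the same transcripts, so the calls and the list are one observation.

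Ccnb2, which encodes cyclin B2, a partner of the mitotic kinase CDK1, led the list (chromosome 9, 70407692 to 70421547). It stood at 601 CPM in KI DN3 cells (157 UMIs) and 713 CPM in WT DN3 cells (233 UMIs) of cluster 9, against 3.67 and 1.79 CPM in clusters 0 and 1 and 2.16 and 1.45 CPM in cluster 6. The cluster 9 level was 247 times that of clusters 0 and 1 over all libraries, a log2 ratio of 7.95 (7.58 to 8.34), and the log2 ratio over cluster 6 was 8.10 (7.34 to 8.98). Ccnb2 UMIs were found in 67 of 72 cells (93.1%), with a median of 6 per cell and a highest value of 17, so the transcript marked nearly every member, against 1.20% of cells in clusters 0 and 1 and 1.82% in cluster 6. After thinning the shares were 78.4%, 0.674% and 0.680%.

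Birc5 encodes survivin, a subunit of the chromosomal passenger complex, which corrects the attachment of chromosomes to the spindle. Its level was 149 CPM in KI and 171 CPM in WT cells of cluster 9, against 1.68 and 0.780 CPM in clusters 0 and 1, and the log2 ratio over all libraries was 7.08 (6.49 to 7.69). Cdkn3 encodes a phosphatase that acts on cyclin-dependent kinases, and stood at 57.4 and 52.0 CPM in KI and WT cells of cluster 9, against 0.638 and 0.468 CPM in clusters 0 and 1, a log2 ratio of 6.59 (5.64 to 7.60). Cenpa, named by its ratio over cluster 6 and not among the 12 highest over clusters 0 and 1, encodes the histone H3 variant of centromeres, which is loaded anew around each division. It was at 566 and 502 CPM in KI and WT cells of cluster 9, against 17.9 and 28.1 CPM in clusters 0 and 1, a log2 ratio of 4.52 (4.32 to 4.72). Besides Ccnb2, Birc5 and Cdkn3, the 12 greatest ratios over clusters 0 and 1 were those of Cdca3 (log2 ratio 6.25), Ccnb1, which encodes cyclin B1 (6.14), the proliferation antigen Mki67 (6.05), the kinetochore scaffold Knl1 (5.59), the PCNA-binding factor Pclaf (5.32), the kinetochore motor Cenpe (5.26), the spindle factor Tpx2 (5.06), the kinetochore protein Cenpf (5.05) and Cdca8, which encodes the passenger subunit borealin (4.86). All of them were raised in both libraries.

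**Figure D2:**
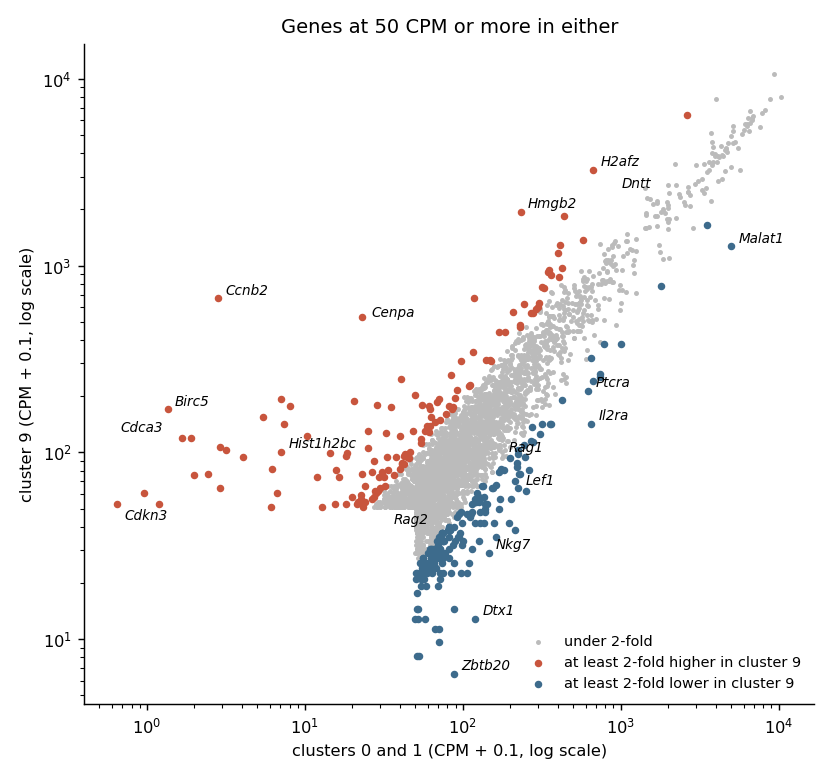
Level of each gene at 50 CPM or more in either group, cluster 9 (y axis) against clusters 0 and 1 (x axis), both as CPM + 0.1 on log scales and summed over all libraries; red points were at least 2-fold higher in cluster 9 (132 genes) and blue points at least 2-fold lower (173 genes). The G2/M genes Ccnb2, Birc5, Cdca3, Cdkn3 and Cenpa lie far from the diagonal at the left, and Zbtb20, Dtx1, Nkg7 and Il2ra lie below it.

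Genes of late cell cycle phases are known to carry a pair of short elements near their start, the cell cycle genes homology region (CHR), bound by the MuvB core of the DREAM complex, and CCAAT boxes, bound by NF-Y. To show what these starts look like, the 150 bases before the annotated start are given for the 3 genes with the greatest ratio over clusters 0 and 1, from RefSeq promoters on GRCm38.p6, 5′ to 3′ on the gene's strand. Capitals mark CHR letters, taken as TTTGAA or TTTAAA, and CCAAT, each on either strand. The windows are chr9:70421555-70421704 (minus strand) for Ccnb2, chr11:117849087-117849236 (plus strand) for Birc5 and chr14:46760391-46760540 (plus strand) for Cdkn3.
Ccnb2: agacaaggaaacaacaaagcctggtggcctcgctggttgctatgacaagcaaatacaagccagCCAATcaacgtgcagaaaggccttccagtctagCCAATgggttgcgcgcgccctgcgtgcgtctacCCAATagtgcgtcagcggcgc
Birc5: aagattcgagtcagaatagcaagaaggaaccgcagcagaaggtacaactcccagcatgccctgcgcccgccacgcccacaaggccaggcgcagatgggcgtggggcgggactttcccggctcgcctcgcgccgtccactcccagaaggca
Cdkn3: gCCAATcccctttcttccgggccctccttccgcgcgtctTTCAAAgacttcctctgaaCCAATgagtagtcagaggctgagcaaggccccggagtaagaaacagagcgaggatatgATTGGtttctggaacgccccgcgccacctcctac
The Ccnb2 window holds CCAAT at 87, 54 and 21 bases before the start, while its TTTGAA letters lie outside it, at 167 bases before and 5 bases after the start. No CHR or CCAAT letters are in the window of Birc5, which has TTTAAA at 220 bases before the start. Cdkn3 has CHR letters on the minus strand at 111 bases before the start and CCAAT at 149, 92 and 34 bases before it. In these 150 bases CHR letters were present for 3 of 11 genes of the 12 with the greatest ratio that had a promoter entry, CCAAT for 9 and both for 3, against 16.8%, 27.7% and 4.24% of 27025 genes with a promoter entry. Over the full 300 bases of the entries, a window chosen after the match just past the start of Ccnb2 was seen, the counts were 11, 9 and 9 of 11, against 30.6%, 41.1% and 12.2% of the 27025 genes. Of the 12 genes with the lowest ratio 10 had an entry, and 2, 5 and 0 of them held CHR letters, CCAAT and both in the 300 bases. A match of letters is not a binding site.

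Cluster 4 held more G2M calls than any other cluster of the series (560 of 1204 cells, the next being cluster 3 with 183) and was added as a comparison after the phase calls of cluster 9 were seen, with its 560 DN3 cells only. Here 382 of 3456 genes were higher in cluster 9 (11.1%) and 355 were lower (10.3%). Of 36 measured G2/M list genes 2 were higher in cluster 9 and 20 were lower, with a median log2 ratio of -1.12. The 2 higher ones were Ccnb2, with 175 and 145 CPM in KI and WT cells of cluster 4 and a log2 ratio of 2.03 (1.88 to 2.19), and Cenpa, with 172 and 127 CPM in cluster 4 and a log2 ratio of 1.78 (1.61 to 1.95).

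Several genes that peak with Ccnb2 in ordinary dividing cells were scarce in cluster 9; the examples in this paragraph were chosen after their values were seen. Top2a, the topoisomerase that untangles chromosomes, was at 19.1 and 24.5 CPM in KI and WT cells of cluster 9, against 605 and 477 CPM in cluster 4, a log2 ratio of -4.74 (-5.65 to -3.96). Aurkb, the kinase of the same passenger complex as survivin, had 0 UMIs in KI and 1 in WT cells of cluster 9, against 198 and 181 CPM in cluster 4, a log2 ratio of -5.90 (-8.95 to -4.05). Cdk1 was at 23.0 and 12.2 CPM in cluster 9, against 215 and 207 CPM in cluster 4, a log2 ratio of -3.73. Plk1 (-3.72), Ccna2 (-3.57) and Ube2c (-2.90) were lower as well. Cdc20, the activator of the anaphase-promoting complex, was at 126 and 153 CPM in cluster 9 and 144 and 117 CPM in cluster 4 (log2 ratio 0.10), and the chromatin protein gene Hmgb2 at 1890 and 1944 CPM in cluster 9 and 2293 and 2280 CPM in cluster 4 (-0.24). Cluster 9 thus matched or passed cluster 4 for some G2/M transcripts and lay far below it for others.

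Most measured DNA replication genes of cluster 9 lay below clusters 6 and 4. Of 18 measured S phase list genes 2 were higher and 1 lower than in clusters 0 and 1, with a median log2 ratio of 0.26. Among all genes 3.82% were higher and 5% lower. Against cluster 4 no S phase gene was higher and 31 of 33 were lower, with a median of -2.29, beside 11.1% and 10.3% of all genes. Taken alone, the KI DN3 cells had 5 of 16 S phase genes higher and 1 lower than in clusters 0 and 1 (median 0.71), beside 4.96% and 7.56% of all genes. The WT DN3 cells had 1 of 15 higher and 2 lower (median -0.27), beside 4.57% and 5.72%. The pooled and WT counts rest on 1 or 2 genes each, and the difference between the libraries was not tested. Cluster 6, in which 400 of 550 cells were called S, had the list above cluster 9: against it 273 of 3417 genes were higher in cluster 9 (7.99%) and 275 lower (8.05%), and of 27 S phase genes none was higher and 24 were lower, with a median of -1.80. With trimmed mean of M values scaling the split of the counts against cluster 6 was 181 higher and 377 lower. Ung, the uracil glycosylase of newly made DNA, was at 19.1 and 6.12 CPM in KI and WT cells of cluster 9, against 288 and 257 CPM in cluster 6, a log2 ratio of -4.60 (-5.92 to -3.56). Others among the 12 lowest against cluster 6 were the helicase Hells (-3.83), the ribonucleotide reductase subunit Rrm2 (-3.50), the DNA ligase Lig1 (-3.10) and E2f1 (-3.09). The G2/M list was higher in 16 and lower in 1 of 24 genes against cluster 6, with a median log2 ratio of 2.71.

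**Figure D3:**
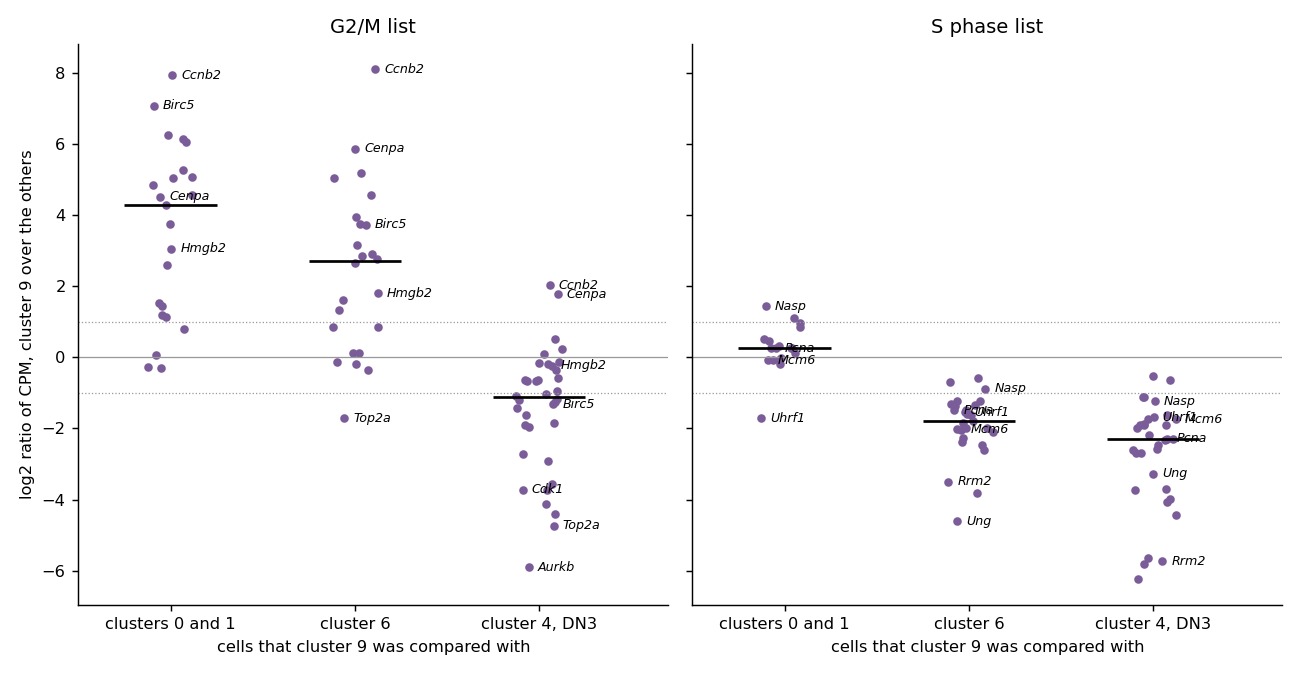
Log2 ratio of the level in cluster 9 over that in clusters 0 and 1, cluster 6 and the DN3 cells of cluster 4 (x axis) for genes of the G2/M list (left) and the S phase list (right) at 50 CPM or more in either group; each point is a gene, the thick bar the median, dotted lines mark 2-fold. The medians of the G2/M list are 4.28, 2.71 and -1.12 and those of the S phase list 0.26, -1.80 and -2.29.

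Within cluster 9 Rag1, Il2ra and Hist1h2bc were at like levels in the cells called G2M and in the other cells, a split made after the phase calls were seen. The G2/M transcripts named here were higher in the cells called G2M. The calls are read from such transcripts, so that difference follows from the split and is no separate result. Of 3527 genes 218 were at least 2-fold higher in the G2M cells than in the other 14 cells (6.18%) and 229 were lower (6.49%). Ccnb2 was at 780 CPM in G2M cells and 235 CPM in the other cells, so that the cells called G1 or S also held it at a level far above clusters 0 and 1. Birc5 was at 207 CPM in G2M cells and 23.5 CPM in the others, and Mki67 at 147 and 15.7 CPM. Rag1 was at 105 CPM in G2M cells and 118 CPM in the others, Il2ra at 143 and 141 CPM, and Hist1h2bc at 98.6 and 110 CPM. The recombinase and CD25 transcripts were therefore present in the cyclin B2 cells themselves and not in the remaining cells alone.

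A few genes outside the cycle lists stood above the comparison groups. Hist1h2bc, a replication-type histone H2B gene, was at 99.5 CPM in KI and 113 CPM in WT cells of cluster 9, against 10.5 and 3.43 CPM in clusters 0 and 1, 3.60 and 0.726 CPM in cluster 6 and 2.32 and 1.47 CPM in cluster 4. Its log2 ratio was 3.86 (3.42 to 4.28) over clusters 0 and 1, 5.48 (4.60 to 6.46) over cluster 6 and 5.66 (4.97 to 6.41) over cluster 4. Reads of histone genes can be shared between near-identical copies, so the single gene is uncertain. Among all histone genes at 50 CPM or more, a group formed after the data were seen, 11 of 20 were higher than in clusters 0 and 1 (median 1.36) and 14 of 20 than in cluster 6 (median 2.04), and none was lower in either. Of all genes 3.82% were higher and 5% lower over clusters 0 and 1, and 7.99% and 8.05% over cluster 6.

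Ptms, which encodes the acidic nuclear protein parathymosin, was at 195 and 184 CPM in KI and WT cells of cluster 9, against 32.4 and 24.6 CPM in clusters 0 and 1, 13 and 7.99 CPM in cluster 6 and 18.2 and 17.7 CPM in cluster 4. Emp1, a membrane protein gene of the PMP22 family, was at 91.8 and 126 CPM in cluster 9, against 22.7 and 27.5 CPM in clusters 0 and 1 and 6.48 and 7.63 CPM in cluster 6. Both genes were thus above all of them in each library. Ifi27l2a, an interferon-inducible gene, was at 42.1 CPM in KI and 141 CPM in WT cells of cluster 9, against 14 and 22.6 CPM in clusters 0 and 1, a log2 ratio of 2.43 (2.03 to 2.82). Lockd, a long noncoding RNA transcribed beside Cdkn1b, was at 187 and 181 CPM in cluster 9, against 7.18 and 6.71 CPM in clusters 0 and 1, a log2 ratio of 4.79 (4.44 to 5.13). The predicted gene Gm4316 was at 80.3 and 239 CPM in cluster 9, against 9.41 and 6.63 CPM in clusters 0 and 1, but its values overlapped the 88.7 and 146 CPM of cluster 4.

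Stage genes of cluster 9 did not follow either comparison group throughout. Of the pre-selection DN3 list, which holds the label markers as well, 10 genes were measured against clusters 0 and 1 with none higher and 5 lower, a median log2 ratio of -1.01. Among all genes 3.82% were higher and 5% lower. Against cluster 6, 7 were measured, of which 3 were higher and 1 lower, a median of 0.74, beside 7.99% and 8.05% of all genes. Ptcra, the pre-T cell receptor α chain, was at 214 and 217 CPM in KI and WT cells of cluster 9, against 622 and 628 CPM in clusters 0 and 1 and 162 and 137 CPM in cluster 6. Its log2 ratio was -1.55 (-1.81 to -1.31) over clusters 0 and 1 and 0.51 (0.24 to 0.78) over cluster 6. Dntt, the template-free polymerase that adds bases at receptor joins, kept a high level, with 2410 and 2516 CPM in cluster 9, 1914 and 2137 CPM in clusters 0 and 1 and 1128 and 1188 CPM in cluster 6. Dntt was chosen after its values were seen; of the list members at 50 CPM or more in cluster 9 it was the only one above both comparison groups in each library.

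Of the recombinase and end-joining list, 7 genes were measured against clusters 0 and 1, and the 2 higher ones were Hmgb2 and Hmgb1, DNA-bending proteins that aid the recombinase and also mark dividing cells. Their log2 ratios over clusters 0 and 1 were 3.06 (2.97 to 3.15) and 1.63 (1.53 to 1.74), and the median of the 7 genes was 0.05. Notch signalling sustains the DN3 stage. Of 10 measured genes of the Notch list none was higher and 4 were lower than in clusters 0 and 1, with a median of -0.81. Among all genes 3.82% were higher and 5% lower. The 4 lower genes were Dtx1, Il2ra, Notch3 and Ptcra, all of them also lower members of the pre-selection DN3 list. The lists are therefore not separate observations, and Il2ra is a label marker as well. Dtx1, a Notch target, was at 15.3 and 9.18 CPM in KI and WT cells of cluster 9, against 128 and 112 CPM in clusters 0 and 1 and 45.0 and 40.3 CPM in cluster 6, a log2 ratio of -3.23 (-4.44 to -2.24) over clusters 0 and 1. Notch3 was at 42.1 and 27.5 CPM in cluster 9, against 97.7 and 99.1 CPM in clusters 0 and 1, a log2 ratio of -1.62. Hes1, another Notch target and chosen after its values were seen, was at 153 and 300 CPM in cluster 9, against 203 and 262 CPM in clusters 0 and 1, so the groups overlapped (log2 ratio -0.07, -0.33 to 0.17). The Notch targets therefore did not move as one.

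The next genes are tied to β-selection, the step at which the pre-T cell receptor signals. Lef1, a transcription factor of early T cell development and partner of β-catenin, was at 45.9 and 70.4 CPM in KI and WT cells of cluster 9, against 197 and 249 CPM in clusters 0 and 1, 451 and 536 CPM in cluster 6 and 274 and 309 CPM in cluster 4. Its log2 ratio was -1.81 (-2.29 to -1.36) over clusters 0 and 1 and -2.94 (-3.43 to -2.49) over cluster 6. Cd5 and Cd6, surface proteins whose level follows receptor signalling, had 0 UMIs in cluster 9, against 60.5 and 59.4 CPM in cluster 6. Both were scarce in clusters 0 and 1 too, with a Cd5 UMI in 1.35% and a Cd6 UMI in 3.82% of cells, against 25.6% and 34% in cluster 6. With a floor of 3 counts over the cluster, the log2 ratios of Cd5 and Cd6 over cluster 6 were at or below -3.65 and -3.63. Of 12 measured genes from a list of those known to answer the pre-T cell receptor, none was higher and 1 was lower than in clusters 0 and 1, with a median of -0.46. Among all genes 3.82% were higher and 5% lower, so these counts are near the background. Cd4 had 0 UMIs and Cd8a 1 UMI among the 624629 UMIs of the cluster. Cd8b1, the CD8 β chain gene, had 13 UMIs in 6 of 72 cells (8.33%, 3.12 to 17.3%), of which 3 cells with 3 UMIs were KI DN3 and none WT DN3. The share of cells with a Cd8b1 UMI was 0.527% in clusters 0 and 1 and 1.82% in cluster 6, and after thinning it was 3.69% in cluster 9, 0.298% in clusters 0 and 1 and 0.846% in cluster 6.

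The lowest ratios over clusters 0 and 1 belonged to genes of mixed roles. Zbtb20, a transcriptional repressor, was at 3.83 and 9.18 CPM in KI and WT cells of cluster 9, against 78.0 and 97.2 CPM in clusters 0 and 1, a log2 ratio of -3.77 (-5.65 to -2.41). Nkg7, a granule protein gene of cytotoxic lymphocytes, was at 11.5 and 45.9 CPM in cluster 9, against 133 and 160 CPM in clusters 0 and 1 and 218 and 238 CPM in cluster 6. The others were Chrna9 (-2.71), the imprinted noncoding RNA H19 (-2.67), the surface glycoprotein gene Cd52 (-2.65), Fam163b (-2.61), Pglyrp2 (-2.58), Prrt1 (-2.49), Cyth4 (-2.25) and the deacetylase gene Hdac4 (-2.21). With Dtx1 and Il2ra they make up the 12 lowest, and each lay lower in both libraries.

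Glycolysis, heat shock and immediate early genes are read against the shares of all genes that were higher and lower, 3.82% and 5% over clusters 0 and 1 and 7.99% and 8.05% over cluster 6. Of 10 measured glycolysis genes none was higher and 2 were lower than in clusters 0 and 1 (median 0.02), and none was higher and 6 were lower than in cluster 6 (median -1.16). Of 7 measured heat shock genes none was at least 2-fold apart from clusters 0 and 1 (median 0.05), and 4 of 8 were lower than in cluster 6 (median -1.01). Hspa8, the constitutive HSP70 chaperone gene, was at 2054 and 2109 CPM in KI and WT cells of cluster 9, against 2357 and 3109 CPM in clusters 0 and 1 and 5282 and 6813 CPM in cluster 6. Of 14 immediate early genes 5 were lower than in clusters 0 and 1 and none higher (median -0.50), and 3 of 12 were higher than in cluster 6 (median 0.61). Of the cyclin D and CDK inhibitor list 3 of 7 were lower than in clusters 0 and 1. Ccnd2, a D-type cyclin gene of G1, was at 84.2 and 82.6 CPM in cluster 9, against 222 and 223 CPM in clusters 0 and 1, a log2 ratio of -1.42 (-1.84 to -1.02).

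Markers of other lineages were read as lists. Cluster 9 held 624629 UMIs and clusters 0 and 1 held 25442821, so a gene at a low level reaches 0 more readily in cluster 9. In clusters 0 and 1 the genes at 0 were 1 of 15 myeloid and dendritic, 1 of 3 erythroid and 1 of 8 B cell genes. Of the NK and innate lymphoid list 4 of 13 were at 0 there, and of the gamma delta list 0 of 13. A gene at 0 in cluster 9 is therefore not shown to be absent. Of the myeloid and dendritic list 10 of 15 genes were at 0 in cluster 9, among them Cd74, C1qa, Csf1r and Tyrobp, with summed levels of 176 CPM in KI and 248 CPM in WT cells, against 203 and 205 CPM in clusters 0 and 1. All 3 erythroid genes in the matrix were at 0. Of the B cell list 3 of 8 were at 0, Cd79a among them, with sums of 256 and 364 CPM in cluster 9, against 236 and 275 CPM in clusters 0 and 1. Of the NK and innate lymphoid list 10 of 13 were at 0, and its sums of 585 and 609 CPM in cluster 9, against 350 and 490 CPM in clusters 0 and 1, were mostly Gzma, the granzyme A gene, at 532 and 505 CPM in cluster 9 and 152 and 257 CPM in clusters 0 and 1. Gzma was also at 598 and 617 CPM in cluster 4. The gamma delta list had 1 of 13 genes at 0 and summed to 979 and 1099 CPM, against 1178 and 1395 CPM in clusters 0 and 1, although Trdc, a member, was above clusters 0 and 1 in both libraries. Stromal genes summed to 329 and 162 CPM in cluster 9, against 374 and 285 CPM in clusters 0 and 1, of which Epcam gave 260 and 64.3 CPM in cluster 9 and 303 and 210 CPM in clusters 0 and 1. The part of free RNA in these sums was not tested.

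Receptor sequence was read in libraries apart from those that gave the clusters. A productive TRB chain, a complete rearranged β chain in frame, was found in 4 of 31 KI DN3 cells (12.9%, 3.63 to 29.8%) and 4 of 38 WT DN3 cells (10.5%, 2.94 to 24.8%) of cluster 9. Together these are 8 of 69 cells (11.6%, 5.14 to 21.6%), against 5.78% (5.13 to 6.48%) in clusters 0 and 1, 69.6% (65.5 to 73.5%) in cluster 6 and 82.9% in the DN3 cells of cluster 4. The interval of cluster 9 overlapped that of clusters 0 and 1 and lay far below that of cluster 6, whose cells had a similar median depth (9944.5 UMIs, against 8780.5 in cluster 9). None of the 69 cells had a productive α chain, which allows a share of up to 4.35% by a limit of 3 counts and up to 5.21% by the exact binomial interval. By library, clusters 0 and 1 had a TRB chain in 4.78% of KI and 6.87% of WT cells.

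**Figure D4:**
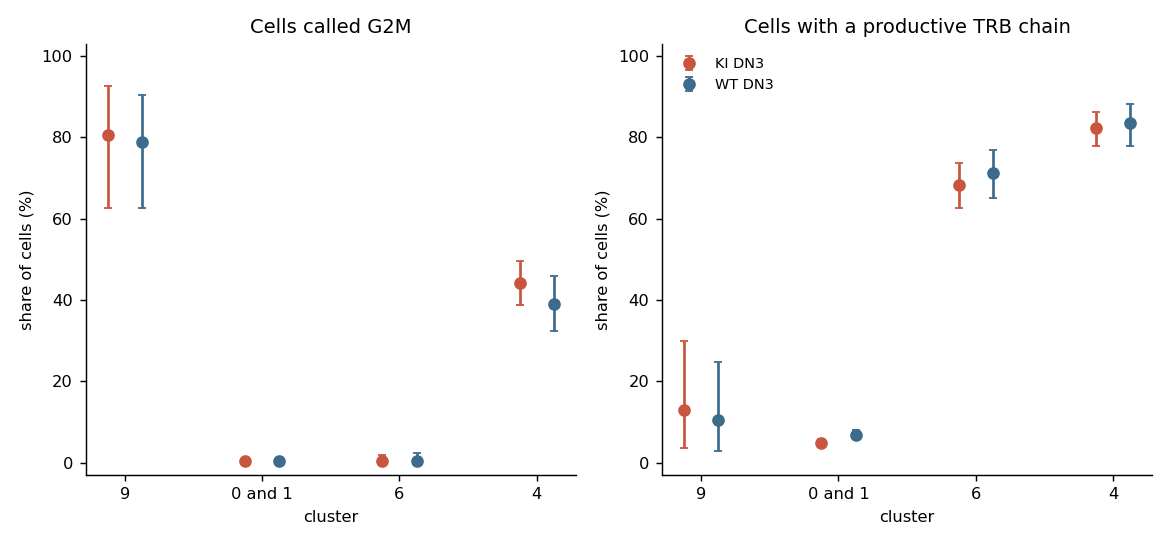
Share of DN3 cells called G2M in the deposited table (left) and share with a productive TRB chain in the receptor libraries (right), in percent (y axis) by cluster (x axis), with KI DN3 left of WT DN3; bars are 95% exact binomial intervals. Cluster 9 had 25 of 31 and 30 of 38 cells called G2M and 4 of 31 and 4 of 38 cells with a TRB chain.

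Counting the DN4 libraries, 10 cells of cluster 9 had a TRB chain, and all 10 were called G2M. They held 9 distinct CDR3 sequences, the joined stretch that contacts antigen. The chains of the 8 DN3 cells are shown because the bases at the join tell separate rearrangements apart. Capitals mark the first and last codon, which encode the conserved cysteine and phenylalanine. The sequences come from the deposited contigs of the β locus on chromosome 6, 5′ to 3′.
KI DN3, TRBV1 and TRBJ1-6: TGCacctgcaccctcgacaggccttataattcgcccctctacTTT
KI DN3, TRBV13-1 and TRBJ2-1: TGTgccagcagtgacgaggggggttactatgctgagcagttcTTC
KI DN3, TRBV20 and TRBJ1-6: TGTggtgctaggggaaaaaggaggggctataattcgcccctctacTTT
WT DN3, TRBV3 and TRBJ2-7: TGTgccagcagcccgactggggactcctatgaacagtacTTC
WT DN3, TRBV20 and TRBJ1-3: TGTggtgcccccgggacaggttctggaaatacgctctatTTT
WT DN3, TRBV13-3 and TRBJ1-4: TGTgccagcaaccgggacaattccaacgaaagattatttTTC
WT DN3, TRBV20 and TRBJ1-1: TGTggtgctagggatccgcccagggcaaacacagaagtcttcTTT
The KI cells with TRBV13-1 and TRBJ2-1 were 2 separate barcodes with 1 and the same sequence, which no other cell in the matrix held, and the other 6 DN3 cells each had their own. Sharing of a β CDR3 with another cell of the library was found in 0 of 118 KI and 1 of 155 WT cells of clusters 0 and 1, 3 of 198 KI and 0 of 173 WT cells of cluster 6 and 3 of 286 KI and 3 of 178 WT cells of cluster 4. In each of these cells the V gene of the contig was also the leading V gene in its own expression library, for example Trbv1 in 23 of 23 TRBV UMIs and Trbv3 in 32 of 33. The barcodes of the receptor and expression libraries therefore matched in these cells.

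Cells of cluster 9 with and without a TRB chain differed in recombinase transcripts, a split added after the data were seen. Over the DN3 cells, Rag1 had 1 UMI in the 8 cells with a chain (0 KI, 1 WT) and 62 UMIs in the 61 cells without one (30 KI, 32 WT), or 14.2 and 120 CPM, a log2 ratio of -3.08 (-8.40 to -0.54). Rag2 had 1 UMI with a chain and 28 without, and its interval included no difference (log2 ratio -1.93, -7.28 to 0.67). Trdc, the constant segment of the δ chain, had 9 UMIs with a chain and 242 without, a log2 ratio of -1.87 (-3.02 to -0.92). Lef1 went the other way, with 185 CPM in cells with a chain and 42.5 CPM in cells without one, a log2 ratio of 2.12 (1.01 to 3.17), and was higher in cells with a chain in KI (180 and 30.0 CPM) as in WT (188 and 52.8 CPM). Ccnb2 was at 696 CPM with a chain and 659 CPM without, Ptcra at 213 and 216 CPM and Dntt at 2415 and 2476 CPM. The cyclin B2 transcript was thus as high in cells in which no productive TRB chain was found as in those with one. A chain missed by the receptor library cannot be told from an absent one. In cluster 4 no chain was found in 96 of 560 DN3 cells.

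The same split was made in the other clusters. In clusters 0 and 1 Rag1 was at 89.5 CPM in cells with a chain and 173 CPM in cells without one (log2 ratio -0.95), Rag2 at 14 and 33.1 CPM (-1.24) and Lef1 at 404 and 211 CPM (0.94). In cluster 6 Rag1 was at 13.7 CPM with a chain and 45.5 CPM without (-1.73), Rag2 at 2.85 and 12.6 CPM (-2.14, -3.34 to -1.02) and Lef1 at 524 and 420 CPM (0.32). Rag1 and Rag2 were thus lower, and Lef1 higher, in cells with a chain of each of these clusters. Trdc was not lower with a chain in clusters 0 and 1, with 267 and 255 CPM (log2 ratio 0.07, -0.08 to 0.21). In cluster 6 it was at 287 CPM with a chain and 342 CPM without (-0.25, -0.40 to -0.10). The difference between the clusters in these ratios was not tested, and the ratio in cluster 9 rests on 8 cells.

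Transcripts of β chain V genes were also found in cells for which the receptor libraries held no productive chain. In the 62 cells of cluster 9 without a chain, 142 of 176 TRBV UMIs were of Trbv13-2 (80.7%), found in 41 cells (66.1%, 53 to 77.7%). In cells without a chain of clusters 0 and 1 the gene took 60.8% of TRBV UMIs and was found in 56.9% of cells, and in cluster 6 52.7% and 59.5%. Trbv13-2 was picked after its values were seen. By library it took 83.0% in KI and 86.7% in WT cells of cluster 9, against 60.0% and 61.6% in clusters 0 and 1. The Trdc level was 432 CPM in KI and 422 CPM in WT cells of cluster 9, against 240 and 271 CPM in clusters 0 and 1 and 301 and 307 CPM in cluster 6, a log2 ratio of 0.74 (0.56 to 0.92) over clusters 0 and 1. A Trdc UMI was found in 52 of 72 cells (72.2%), against 44.8% of cells in clusters 0 and 1 and 66.4% in cluster 6, and after thinning in 52.5%, 35.2% and 43.8%. In clusters 2 and 5, nearly all DN4 cells, the thinned share was 50.8%, close to that of cluster 9. No productive γ or δ chain was found in any of the 69 DN3 cells. None was found either in the 4744 cells of clusters 0 and 1, the 550 of cluster 6 or the 1204 of cluster 4. The receptor libraries therefore cannot show whether cluster 9 cells had rearranged γ or δ genes.

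The genotypes were compared within cluster 9 on 261430 KI and 326702 WT UMIs of DN3 cells, with 1 library each and so with no test. Of 3389 genes 84 were at least 2-fold higher in KI (2.48%) and 177 lower (5.22%), with a median log2 ratio of -0.04. In clusters 0 and 1, with 12536768 KI and 12820151 WT UMIs, 4 of 3243 genes were higher in KI (0.123%) and 9 lower (0.278%). A gene at the minimum level in cluster 9 rested on few UMIs, as Gsk3b shows with 13 UMIs in KI and 20 in WT cells, 49.7 and 61.2 CPM. Gsk3b is the targeted gene, and transcript counts do not show the labelled substitution. Over clusters 0 and 1, where it was at 117 and 135 CPM in KI and WT cells, its log2 ratio in cluster 9 was -1.21 (-1.75 to -0.73).

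Apobec3, which encodes a cytidine deaminase that restricts retroviruses, was lower in KI cells of cluster 9, with 26.8 CPM (7 UMIs) against 233 CPM in WT cells (76 UMIs), a log2 ratio of -3.12 (-4.48 to -2.01). The same direction was seen in clusters 0 and 1, with 45.1 CPM in KI and 200 CPM in WT cells (-2.14), in cluster 6 (38.2 CPM in KI, 126 CPM in WT) and in cluster 4 (36.0 CPM in KI, 203 CPM in WT). Cd96, a receptor of T and NK cells, had 0 UMIs in KI and 22 in WT cells of cluster 9, a log2 ratio at or below -2.55 with a floor of 3 counts, and 2.55 CPM in KI against 78.9 CPM in WT cells of clusters 0 and 1 (-4.95). Both genes therefore differed between the libraries in other clusters too. Hist1h2bj had 6 UMIs in KI and 53 in WT cells of cluster 9 (-2.82), and 7.18 CPM in KI against 21.5 CPM in WT cells of clusters 0 and 1 (-1.58). Hist1h2ac had 2 and 20 UMIs in KI and WT cells (-3.0), with a ratio of -1.13 in clusters 0 and 1.

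Other genes named by the rule were at least 2-fold apart in cluster 9 and less than 2-fold apart in clusters 0 and 1, most of them on few UMIs. Fam78a had 3 UMIs in KI and 34 in WT cells of cluster 9, a log2 ratio of -3.18 (-5.53 to -1.51), against -0.11 in clusters 0 and 1. Xab2 had 3 and 21 UMIs in KI and WT cells (-2.49), against -0.06. Tipin, a component of the replication fork protection complex, had 30 UMIs in KI and 6 in WT cells (2.64, 1.36 to 4.2), against 0.20 in clusters 0 and 1. Ptp4a3, a phosphatase gene, had 33 and 8 UMIs in KI and WT cells (2.37), against 0.08, Synj2bp 19 and 3 UMIs (2.98), against 0.46, and Gm26825 15 and 4 UMIs (2.23), against -0.11. Epcam, an adhesion protein gene, was at 260 CPM in KI cells (68 UMIs) and 64.3 CPM in WT cells (21 UMIs), a log2 ratio of 2.02 (1.29 to 2.80), against 303 and 210 CPM in clusters 0 and 1 (0.53). Sys1 had 15 UMIs in KI and 1 in WT cells (4.23, 1.53 to 9.62), against 0.94. Whether these ratios differ between clusters was not tested.

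**Figure D5:**
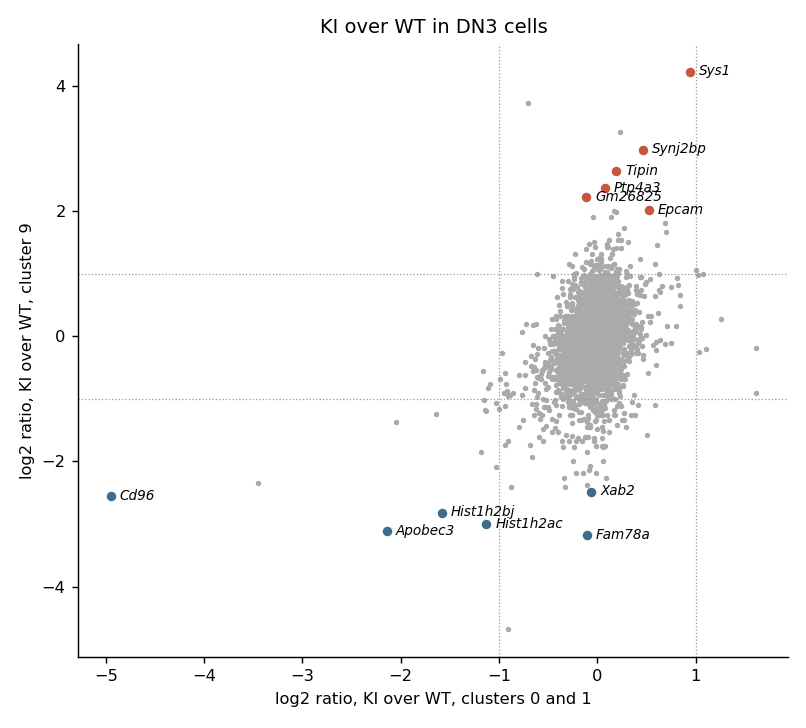
Log2 ratio of KI over WT levels in DN3 cells of cluster 9 (y axis) and of clusters 0 and 1 (x axis), for genes at 50 CPM or more in either genotype of cluster 9; named points are the 6 highest (red) and 6 lowest (blue) ratios by the naming rule, dotted lines mark 2-fold, and ratios against 0 UMIs use a floor of 3 counts (Cd96 in cluster 9). Apobec3 and Cd96 are lower in KI on both axes, while Fam78a, Xab2, Tipin and Ptp4a3 lie near 0 on the x axis.

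The G2/M genes stood high in both genotypes. The G2/M list had a median log2 ratio over clusters 0 and 1 of 3.94 in KI and 4.16 in WT cells. Of its measured genes 20 of 23 in KI and 21 of 25 in WT cells were higher, beside 4.96% and 4.57% of all genes. The S phase list summed to 2398 CPM in KI cells of cluster 9 and 1469 CPM in WT cells, against 1665 and 1787 CPM in clusters 0 and 1, and the 3 cells called S were all KI. Mcm6, a subunit of the replicative helicase chosen after its values were seen, was at 249 CPM in KI (65 UMIs) and 113 CPM in WT cells (37 UMIs) of cluster 9, against 177 and 180 CPM in clusters 0 and 1. The immediate early list summed to 3102 CPM in KI and 4233 CPM in WT cells of cluster 9, against 5497 and 7686 CPM in clusters 0 and 1, lower in KI in both.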

How the data were processed

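The deposited expression matrix holds unnormalised UMI counts for 15653 genes in 10237 cells, and the deposited receptor tables hold UMI counts per assembled contig. The tools Cell Ranger 3.1.0 and Cell Ranger 6.0.1 and the build mm10 are listed in the submitters' processing notes, with no role stated; how cells were filtered, clustered and given a phase is not given in the sources used here. No cell was removed. UMIs were summed per cluster and library and scaled to CPM. Ratios have exact conditional-binomial intervals, shares Clopper-Pearson intervals, at 95%; a floor of 3 counts replaced 0. On simulated counts with counting error alone, the script called 100 of 100 genes changed 4-fold up in cluster 9 over clusters 0 and 1. A 4-fold change lies far above the 2-fold rule, so this checks the script and not the results. No test was run, since each group had 1 library and cells are not replicates. Doublet scores came from Scrublet (scanpy 1.11.5), run on each library, and no cell was dropped for them. Positions came from GENCODE vM21 by symbol (154 of 154 named genes matched), promoters from RefSeq. Other tools were Python 3.11.15, numpy 2.4.6, scipy 1.17.1, pandas 2.3.3 and matplotlib 3.10.9. Named genes were the label markers, the 12 highest and 12 lowest ratios over clusters 0 and 1, over cluster 6 and over both, with the same sign in both DN3 libraries and an interval without 0, the 6 highest and lowest KI over WT ratios in cluster 9, and up to 4 members of each of 35 lists; receptor, ribosomal, mitochondrial, Xist and Y-linked genes stayed out of the rankings, and 1 gene the rule names is not reported here. The cluster and the lists were chosen with earlier results of these data known. Alternatives tried were the minimum level, scaling, phase, doublets, cell weighting, each library alone and thinning.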

Additional observations from a re-analysis of the deposited data

How the results depend on the processing

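The counts of genes at least 2-fold apart moved with the minimum level and the cells taken. For cluster 9 over clusters 0 and 1, with 132 higher and 173 lower genes, they were 240 and 483 at 20 CPM, 78 and 75 at 100 CPM and 335 and 374 with G1 cells only, which leaves 11 cells of cluster 9; with KI DN3 cells only 261 genes were lower, and with receptor, ribosomal, mitochondrial and histone genes left out of the total 292 were lower. For cluster 9 over cluster 6, with 273 and 275, they were 575 and 509 at 20 CPM and 116 and 148 at 100 CPM, and 181 genes were higher with TMM scaling, which shifts the log2 ratios by -0.17, 456 with G1 cells only and 414 with WT DN3 cells only. For KI over WT within cluster 9, with 84 and 177, they were 377 and 615 at 20 CPM, 19 and 46 at 100 CPM and 287 and 504 with G1 cells only; 127 genes were higher with each cell weighted alike and 137 with G2M cells only, an alternative added after the data were seen. The cause was not tested. Of 2941 values of named genes under the alternatives, 2628 moved less than their interval, 309 moved more and 4 changed sign, all with G1 cells only: 2410002F23Rik over clusters 0 and 1 became 0.14, and over cluster 6 Ccr9 became -0.16, E2f1 0.74 and Rrm1 0.56. The 2628 include all values at 20 and 100 CPM, which could not move because the minimum level does not enter a ratio. They also include all values without doublets, where no cluster 9 cell was left out. The total is therefore no measure of stability. Among cells with a contig only, cluster 9 was 0.549% of KI DN3 and 0.670% of WT DN3 cells. After thinning to 3000 UMIs the shares of cluster 9 cells with a UMI were 13% for Rag2, 24.9% for Rag1 and 32.5% for Il2ra. The share of clusters 0 and 1 with a TRB chain was 4.78% in KI and 6.87% in WT cells. The share of cluster 9 with a TRB chain stayed at 8 of 69 cells with contigs of at least 2 UMIs and without doublets. No paired analysis was possible because each group had 1 library and no result came from a test. Depth limits genes near the minimum level, which rest on few UMIs in 72 cells.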
